A study of Mus musculus with 2 samples.

Results

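Growth factor receptor tyrosine kinases of fibroblasts were followed on a pair of Affymetrix arrays of mouse NIH 3T3 cells. The 10 genes were chosen by name: Pdgfra, Pdgfrb, Fgfr1, Fgfr2, Egfr, Igf1r, Insr, Met, Axl and Ddr2. Every probe set annotated with exactly 1 symbol that is one of these was taken, which gave 21 probe sets for the 10 genes, out of 12393 genes named this way on the arrays. One array held RNA of NIH 3T3 cells, an embryonic fibroblast line, after transfection of the plasmid pHA-CMV-ATCE1-C-del. That plasmid encodes ATCE1 without its C terminus, which the study describes as its nuclear form, behind a CMV promoter that is active in most cell types. ATCE1 is a CREB-family transcription factor whose gene is now called Creb3l4. The control array held RNA of the same line given the pHA-CMV vector alone. In both cases RNA was extracted 48 hours after lipid transfection, and the sources used here do not give the share of cells that took up plasmid. Each group had 1 array, so values carry no replicate error, no test was possible, and precision is limited by the number of arrays.

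Receptor tyrosine kinases span the cell membrane once, bind a growth factor or matrix ligand outside and phosphorylate tyrosines inside. Those phosphotyrosines recruit adapters such as Grb2 and Shc1, which pass the signal to Ras, the MAP kinases and the PI3 kinase and Akt route. In fibroblasts, PDGF, FGF and IGF receptors drive growth in serum, and sprouty proteins, MAP kinase phosphatases and ubiquitin ligases such as Cbl limit the response.

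A signal under 77.35, the higher of the array medians, was raised to that floor before log2 ratios of ATCE1-C-del over empty vector were taken. A gene was measured if a probe set reached the floor on at least 1 array, and its brightest probe set (by mean log2 signal over the arrays) stood for it. No detection calls were used. In all, 11592 of 22626 probe sets and 6788 genes were measured, 10968 probe sets on both arrays. The middle 95% of the log2 ratios of those 10968 ran from -0.50 to 0.46. The spread between probe sets of 1 gene, taken from 2441 genes with a pair measured on both arrays, was 0.20 (SD of 1 probe set, log2). It is the only error estimate here and leaves out culture, transfection and labelling. All 12 fibroblast markers were measured, against 0 of 9 epithelial, 0 of 8 endothelial, 0 of 7 skeletal muscle, 2 of 8 macrophage and 1 of 5 adipocyte markers on the arrays. The only Creb3l4 probe set read 18.0 in ATCE1-C-del cells and 20.7 in empty vector cells, under the floor on both, so it does not check which culture carried the insert. Where its probes lie in the transcript was not examined.

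Most of these receptors were measured and nearly level between the arrays. Of the 21 probe sets, 12 reached the floor on both arrays, 1 reached it only with ATCE1-C-del, and 8 stayed under it on both, with signals from 2.6 to 44.5. The 12 stood for 8 genes: Pdgfra, Pdgfrb, Fgfr1, Fgfr2, Igf1r, Met, Axl and Ddr2. Egfr was measured with ATCE1-C-del alone, and Insr on neither array. Among the 12 probe sets above the floor on both arrays, 0 were at least 1.5-fold apart, where 2.29% of all such probe sets were. Of the 9 measured genes, 0 passed 1.5-fold, against 1.99% of all measured genes. With backgrounds this low, a count of 0 among so few members does not set the receptors apart. At a log2 ratio of 0.32 in size, 1 of the 12 probe sets passed, a Pdgfrb one, against 15.6% of all. By brightest probe set, the 8 genes measured on both arrays lay on both sides, 3 higher and 5 lower with ATCE1-C-del, with Pdgfra among the lower although its other probe set lay above 0. Of all genes measured on both arrays, 47.66% were higher. Egfr is left out of this count, since a gene above the floor only with ATCE1-C-del can only be higher. The median log2 ratio was -0.08 over the 8 genes and -0.04 with Egfr at its bound, where all measured genes had -0.01. In RNA from whole cultures, a change in the share of expressing cells and a change of RNA per cell cannot be told apart.

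**Figure D1:**
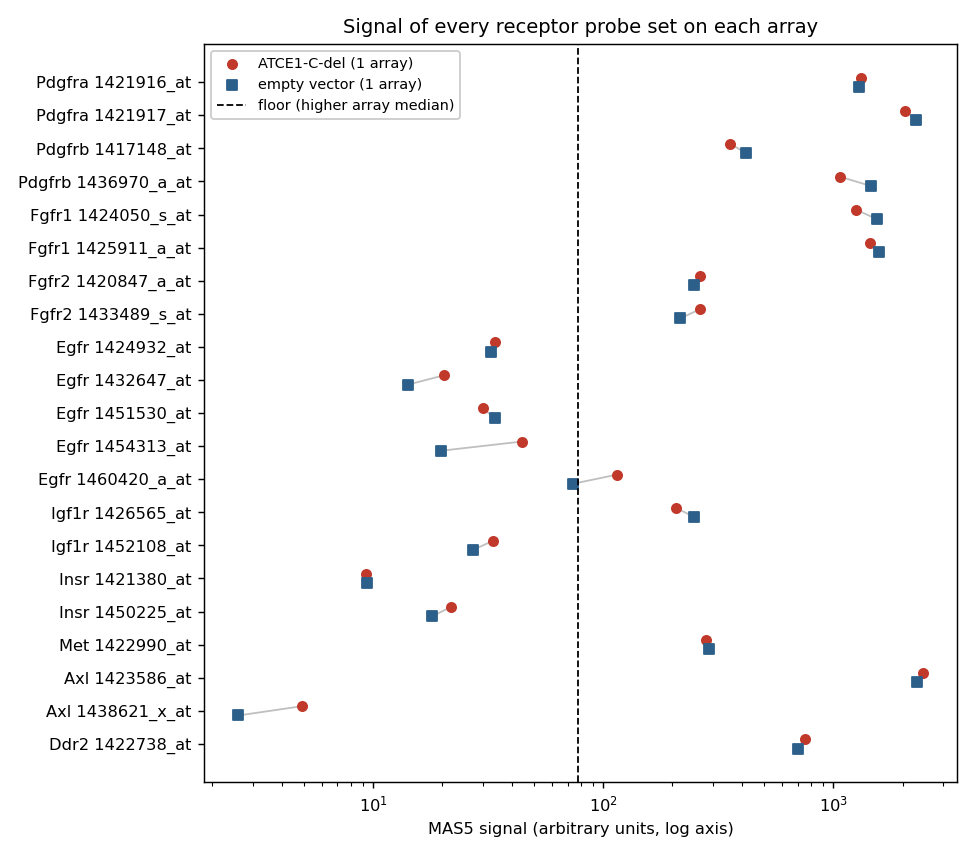
MAS5 signal (arbitrary units, log axis) of all 21 receptor probe sets, with circles for the ATCE1-C-del array, squares for the empty vector array and a dashed line for the floor of 77.35. The pairs of points lie close together for the 12 probe sets above the floor on both arrays, and 8 probe sets, among them both of Insr, lie under it on both; signals of different probe sets are not comparable as RNA levels.

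Signs in the following depend on how the arrays were scaled. The values given use trimmed-mean scaling. When the arrays were scaled instead to the hybridisation controls, RNAs added before hybridisation, the median log2 ratio over all measured genes shifted to 0.23 and each of the 12 probe sets moved up with it. The sign of 4 probe sets turned on that scale, and that of 1 further one, for Pdgfra, turned on scaling to array medians. Relative to the median of all measured genes, 0 of the 13 measured probe sets turned side under the alternative settings. Each probe set had a value in 9 to 11 of them. Settings that multiply a whole array by a constant, such as hybridisation control scaling, move the ratios and that median nearly together. A changed floor leaves ratios above it as they were. Most of these settings could thus hardly turn a side, and the count of 0 is no check on the scaling.

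**Figure D2:**
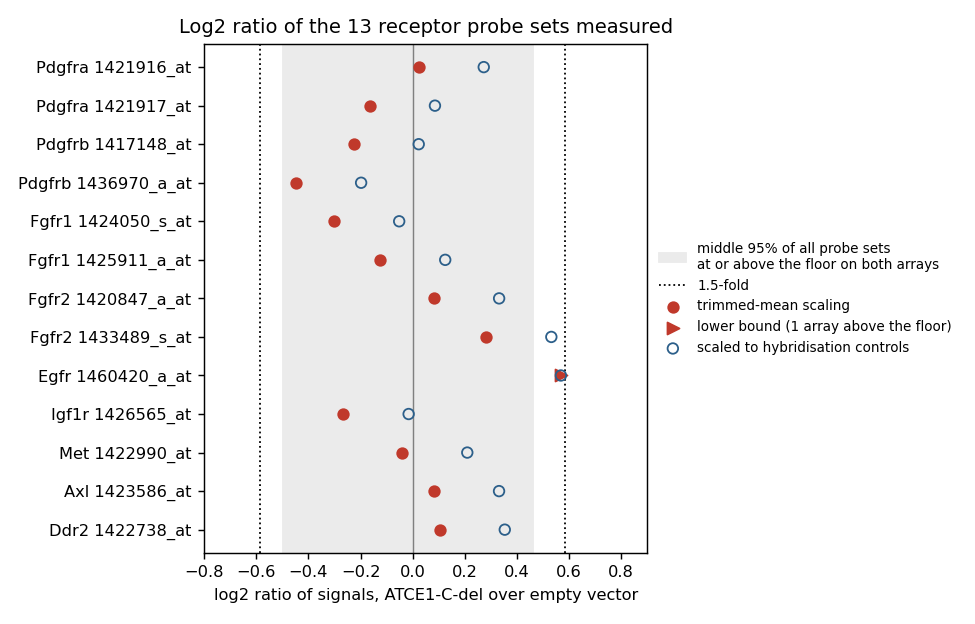
Log2 ratio of signals, ATCE1-C-del over empty vector, for the 13 measured receptor probe sets. Filled circles use trimmed-mean scaling, the triangle is the lower bound for Egfr, and open circles use the hybridisation controls. The shaded band is the middle 95% of all probe sets measured on both arrays and dotted lines mark 1.5-fold. The filled circles all lie inside the band, with Pdgfrb 1436970_a_at lowest at -0.45. On hybridisation control scaling 4 of the 13 change sign (Pdgfra 1421917_at, Pdgfrb 1417148_at, Fgfr1 1425911_a_at and Met).

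Pdgfrb, the receptor for PDGF-BB and PDGF-DD and a mitogen receptor of mesenchymal cells, had the lowest ratio among the members. Probe set 1436970_a_at read 1072.2 in ATCE1-C-del cells and 1458.7 in empty vector cells, 1.36-fold lower (log2 ratio -0.45, and -0.20 when scaled to the hybridisation controls). Among all probe sets measured on both arrays, 3.63% had a lower ratio, and among the 3656 of them with the highest signals, 1.48%. The other probe set, 1417148_at, read 356.4 in ATCE1-C-del cells and 416.0 in empty vector cells. That is 1.17-fold lower, a log2 ratio of -0.23 that turned to 0.02 on hybridisation control scaling. Both probe sets were thus lower on the trimmed-mean scale, by amounts that differed by 0.22 (log2). The median gap over all genes with such a pair was 0.17. Their mean log2 ratio was -0.34.

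Pdgfra, the receptor for PDGF-AA and PDGF-CC, gave probe sets on opposite sides of 0. Probe set 1421917_at read 2051.5 in ATCE1-C-del cells and 2293.3 in empty vector cells, 1.12-fold lower (log2 ratio -0.16, turning to 0.09 on hybridisation control scaling). Probe set 1421916_at read 1322.3 in ATCE1-C-del cells and 1298.2 in empty vector cells. Its log2 ratio was 0.02, and -0.0026 when scaled to array medians. The gap between these probe sets was 0.19 (log2), near the median gap of 0.17 over all such pairs, and no direction can be given for the gene.

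Fgfr1, the main FGF receptor of fibroblasts, was lower on both of its probe sets by small amounts. Probe set 1424050_s_at read 1259.1 in ATCE1-C-del cells and 1548.0 in empty vector cells, 1.23-fold lower (log2 ratio -0.30, and -0.05 on hybridisation control scaling). The suffix _s_at marks probes that can match several transcripts. Probe set 1425911_a_at, which by its suffix can match alternative transcripts of 1 gene, read 1449.6 in ATCE1-C-del cells and 1576.8 in empty vector cells. It was 1.09-fold lower, with a log2 ratio of -0.13 that turned to 0.13 on hybridisation control scaling. Among the 3656 probe sets with the highest signals, 5.01% lay lower than 1424050_s_at and 21.69% lower than 1425911_a_at.

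Fgfr2, whose splice forms divide between mesenchyme and epithelium, lay on the other side, higher with ATCE1-C-del on both of its probe sets. Probe set 1420847_a_at read 262.4 in ATCE1-C-del cells and 247.3 in empty vector cells (log2 ratio 0.08). Probe set 1433489_s_at read 263.6 in ATCE1-C-del cells and 216.2 in empty vector cells, 1.22-fold higher (log2 ratio 0.28). Of all probe sets measured on both arrays, 9.07% had a higher ratio than 1433489_s_at. On the trimmed-mean scale the FGF receptor genes thus went opposite ways, each by at most 1.23-fold on every probe set. With hybridisation control scaling Fgfr2 lay at log2 ratios of 0.33 on 1420847_a_at and 0.53 on 1433489_s_at, the latter 1.45-fold higher. Fgfr1 1425911_a_at, at 0.13, was then on the same side as Fgfr2. The accessory receptor Fgfrl1, which lacks the kinase and was named after its value was seen, read 250.4 in ATCE1-C-del cells and 261.5 in empty vector cells (log2 ratio -0.07).

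Egfr, the EGF receptor, came nearest to 1.5-fold, from signals at the edge of the floor. Probe set 1460420_a_at read 114.9 in ATCE1-C-del cells and 73.6 in empty vector cells, so only the ATCE1-C-del array was above the floor and the gene was at least 1.48-fold higher. With each array's own median as its floor it was at least 1.51-fold higher, and the signals with no floor were 1.56-fold apart, so the floor decides on which side of 1.5-fold this gene falls. The other 4 Egfr probe sets were under the floor on both arrays. Probe set 1454313_at read 44.5 in ATCE1-C-del cells and 19.7 in empty vector cells, and 1432647_at read 20.3 in ATCE1-C-del cells and 14.2 in empty vector cells. Probe set 1424932_at read 33.8 in ATCE1-C-del cells and 32.5 in empty vector cells, and 1451530_at read 29.9 in ATCE1-C-del cells and 33.7 in empty vector cells. Of the 5 probe sets, 4 therefore read higher with ATCE1-C-del and 1 lower, but signals this far under the floor vary by large factors and give no fold.

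Igf1r, the receptor for IGF-1 and IGF-2, was lower on its 1 measured probe set. Probe set 1426565_at read 206.6 in ATCE1-C-del cells and 247.7 in empty vector cells, 1.20-fold lower (log2 ratio -0.27, and -0.02 on hybridisation control scaling). Among all probe sets measured on both arrays, 12.56% had a lower ratio. The other Igf1r probe set, 1452108_at, stayed under the floor at 33.2 in ATCE1-C-del cells and 27.1 in empty vector cells. The closely related insulin receptor gene Insr was not measured: 1421380_at read 9.3 in ATCE1-C-del cells and 9.4 in empty vector cells, and 1450225_at read 21.8 in ATCE1-C-del cells and 18.1 in empty vector cells. A signal under the floor does not show that the transcript is absent.

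Met, the receptor for hepatocyte growth factor, was level. Its only probe set, 1422990_at, read 280.1 in ATCE1-C-del cells and 287.3 in empty vector cells, a log2 ratio of -0.04 that turned to 0.21 on hybridisation control scaling. Axl, the receptor for Gas6, read 2457.6 in ATCE1-C-del cells and 2316.6 in empty vector cells on 1423586_at (log2 ratio 0.08). The second Axl probe set, 1438621_x_at, read 4.9 in ATCE1-C-del cells and 2.6 in empty vector cells. Its suffix marks probes that can match unrelated transcripts, and it gave no ratio. Ddr2, the receptor for fibrillar collagen, read 756.7 in ATCE1-C-del cells and 702.5 in empty vector cells on its only probe set, 1422738_at (log2 ratio 0.10). On their measured probe set, all 3 of these genes were at most 1.07-fold apart with trimmed-mean scaling. With hybridisation control scaling Axl lay at a log2 ratio of 0.33 and Ddr2 at 0.35.

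With 2 probe sets measured on both arrays, 4 members allow a check within the gene. On the trimmed-mean scale, both probe sets lay on the same side for 3 of them, Pdgfrb, Fgfr1 and Fgfr2. So did 59.93% of all 2441 genes with such a pair. On hybridisation control scaling the log2 ratios of Pdgfrb (-0.20 and 0.02) and Fgfr1 (-0.05 and 0.13) fell on opposite sides. Those of Fgfr2 (0.33 and 0.53) and Pdgfra (0.09 and 0.27) then lay on the same side. The gaps ran from 0.18 for Fgfr1 to 0.22 for Pdgfrb (log2), against a median gap of 0.17 over all pairs. With trimmed-mean scaling, the mean log2 ratio was larger in size than the gap for Pdgfrb (-0.34) and Fgfr1 (-0.21). It was smaller for Fgfr2 (0.18) and Pdgfra (-0.07). These means, unlike the gaps, depend on the scaling.

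The other receptor tyrosine kinases, 41 of which have a named probe set, were mostly under the floor. Of these, 7 were measured, which is 17.1%, against 9 of the 10 growth factor receptors and 54.77% of all named genes. Which genes were listed follows from what is known of fibroblasts, so this count is a description. Ddr1, the collagen receptor related to Ddr2, had the lowest ratio of the 7. Its brightest probe set read 219.3 in ATCE1-C-del cells and 325.0 in empty vector cells (1.49-fold lower), but that probe set carries the suffix _x_at. The other measured ones lay at log2 ratios of 0.05, 0.01 and, as a bound with 1 array under the floor, -0.11. Mertk, a relative of Axl, read 86.6 in ATCE1-C-del cells and 111.5 in empty vector cells (1.29-fold lower). Erbb2, a partner of Egfr, read 110.4 in ATCE1-C-del cells and 107.3 in empty vector cells, and Ryk, a Wnt-binding receptor, read 1165.3 in ATCE1-C-del cells and 1106.1 in empty vector cells. For Ryk that is a log2 ratio of 0.07, and its other probe set lay on the other side, at -0.12. The ephrin receptor gene Ephb3 had a log2 ratio of -0.12. Ephb4 read 75.7 in ATCE1-C-del cells and 96.2 in empty vector cells, a log2 ratio of -0.32 that is a bound, since the first signal is under the floor. Epha2 was at least 1.06-fold higher, at 82.2 in ATCE1-C-del cells and 52.8 in empty vector cells. Of the 5 measured on both arrays, 2 were higher and 3 lower, where 47.66% of all such genes were higher. The list had a median log2 ratio of -0.12, which turned to 0.09 on hybridisation control scaling.

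The ligands of these receptors were also close to level, and all 11 that were measured are given here. Of 24 with a named probe set, 10 were measured on both arrays, 6 higher and 4 lower, where 47.66% of all such genes were higher. Their median log2 ratio was 0.06, and the remaining one, Hbegf, is a bound. None of the 11 passed 1.5-fold, where 1.99% of all measured genes did. That count rests on the floor: 1 ligand passed with no floor and 3 with the floor at the 25th percentile. Fgf7, a ligand of the epithelial form of Fgfr2, read 1233.7 in ATCE1-C-del cells and 978.3 in empty vector cells (1.26-fold higher). Hgf, the ligand of Met, read 615.4 in ATCE1-C-del cells and 527.8 in empty vector cells, 1.16-fold higher, and its other probe set gave 0.28 (log2). So on the trimmed-mean scale the ligand of Met lay above 0 on both of its probe sets while Met itself lay at -0.04. On hybridisation control scaling Met lay above 0 as well, at 0.21. Igf2, a ligand of Igf1r, read 847.2 in ATCE1-C-del cells and 971.5 in empty vector cells, 1.15-fold lower. Among PDGF genes, Pdgfa lay at log2 ratios of 0.07 and 0.08 on its probe sets, and Pdgfc at -0.12 on one and 0.29 on the other. The Axl ligand gene Gas6 lay at 0.05 and Pros1, which binds relatives of Axl, at 0.11. The Egfr ligand gene Hbegf read 85.0 in ATCE1-C-del cells and 40.7 in empty vector cells, at least 1.10-fold higher. The fibrillar collagens that Ddr2 binds lay at -0.05 for Col1a1, 0.11 for Col1a2 and -0.09 for Col3a1.

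**Figure D3:**
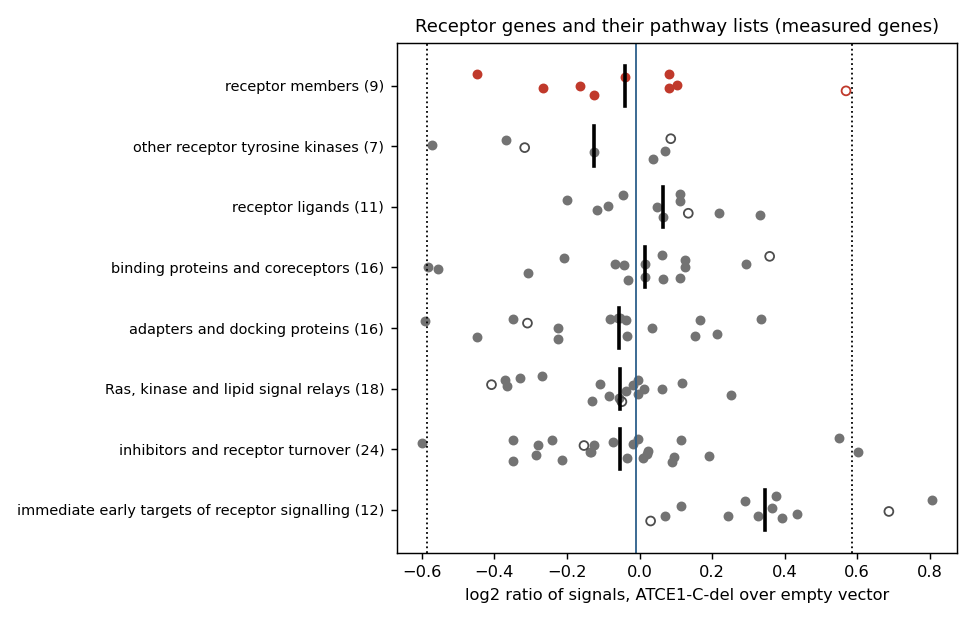
Log2 ratio of signals, ATCE1-C-del over empty vector, for each measured gene of 8 lists, with the number of measured genes in brackets and the receptors in red. Open circles are bounds, with 1 array under the floor: the ratio without a floor would lie further from 0. Black bars are list medians, the blue line the median of all measured genes (-0.01), and dotted lines 1.5-fold. The receptor median is -0.04 and that of the immediate early list 0.35, with trimmed-mean scaling. On hybridisation control scaling the medians become 0.21 for the receptors and 0.60 for the immediate early list, and that of all genes 0.23.

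Proteins that bind the ligands or assist the receptors numbered 16 measured of 22, with 8 higher and 7 lower among the 15 on both arrays. Of all genes measured on both arrays, 47.66% were higher. Among the 16, 0 passed 1.5-fold, against 1.99% of all measured genes. Their median log2 ratio was 0.02 (0.27 on hybridisation control scaling). By second-brightest probe set, available for 7 of the 16, 2 were higher and 5 lower, with a median of -0.06. Igf2r, the mannose 6-phosphate receptor that clears IGF-2, read 944.9 in ATCE1-C-del cells and 1412.4 in empty vector cells, just under 1.5-fold lower with a log2 ratio of -0.58. Its other measured probe set lay at -0.06. The glypican gene Gpc4, whose product is a heparan sulfate coreceptor for FGF, read 375.0 in ATCE1-C-del cells and 550.1 in empty vector cells, 1.47-fold lower on its only measured probe set. The IGF binding protein gene Igfbp4 was 1.24-fold lower on its brightest probe set, and its other probe sets lay at log2 ratios of 0.11, -0.25, 0.03 and -0.45. The syndecan gene Sdc2 was 1.22-fold higher, with others at 0.13 and -0.04.

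Adapters and docking proteins, which receptors phosphorylate or recruit, numbered 16 measured of 22, with 5 higher and 10 lower among the 15 on both arrays, where 52.34% of all genes measured on both were lower. The median log2 ratio was -0.06, turning to 0.19 on hybridisation control scaling. By second-brightest probe set, available for 6 of the 16, 4 were higher and 2 lower, with a median of 0.13. Gab1, a docking protein for Met and Egfr, was the 1 gene past 1.5-fold, where 1.99% of all measured genes were. It read 79.4 in ATCE1-C-del cells and 119.4 in empty vector cells (1.51-fold lower). Its ATCE1-C-del signal was just above the floor and its other probe set lay at a log2 ratio of -0.18. Irs1, the docking protein of the IGF and insulin receptors, read 282.4 in ATCE1-C-del cells and 384.6 in empty vector cells, 1.37-fold lower (log2 ratio -0.45). Igf1r and Irs1 thus both lay below 0 on their measured probe set. Nck1, which links receptors to actin, was 1.27-fold lower. Sh2b3, also called Lnk, was 1.26-fold higher.

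Further down, 18 of 19 genes of Ras, its kinases and the lipid kinases were measured. Among the 16 on both arrays 4 were higher and 12 lower, where 52.34% of all genes measured on both were lower. Of the 18, 0 passed 1.5-fold, against 1.99% of all measured genes. The median log2 ratio was -0.05, turning to 0.19 on hybridisation control scaling. By second-brightest probe set, available for 11 of the 18, 4 were higher and 7 lower, with a median of -0.08. Pik3r2, a regulatory subunit of PI3 kinase, read 334.3 in ATCE1-C-del cells and 430.9 in empty vector cells (1.29-fold lower). The Src family genes Yes1 and Src were 1.29-fold and 1.26-fold lower, Src at 88.0 in ATCE1-C-del cells and 110.2 in empty vector cells, near the floor. Pdpk1, which activates Akt, was 1.21-fold lower and its other probe set lay at a log2 ratio of -0.50. The MAP kinase kinase genes Map2k1 and Map2k2, named after their values were seen, were level at 0.12 and -0.0049.

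Inhibitors and genes of receptor turnover held members at both ends. Of 28 on the arrays 24 were measured, with 9 higher and 14 lower among the 23 on both arrays. Of all genes measured on both arrays, 52.34% were lower. Their median log2 ratio was -0.05 and turned to 0.22 on hybridisation control scaling. The lean to lower depended on the probe set as well. By second-brightest probe set, available for 17 of the 24, 12 were higher and 5 lower, with a median of 0.05. Dusp6, the phosphatase that inactivates ERK, read 155.4 in ATCE1-C-del cells and 102.1 in empty vector cells (1.52-fold higher). Spry2, a sprouty inhibitor of receptor signalling to Ras, read 303.8 in ATCE1-C-del cells and 206.8 in empty vector cells, 1.47-fold higher on its only measured probe set. Socs2, an inhibitor of cytokine and growth hormone signalling, read 78.4 in ATCE1-C-del cells and 118.4 in empty vector cells, 1.51-fold lower. Its other probe set read 63.7 in ATCE1-C-del cells, under the floor, and 79.6 in empty vector cells. That gives only a bound of -0.04 (log2). Ptpn12, a tyrosine phosphatase, was 1.27-fold lower, with others at 0.20, -0.02 and -0.10. The ubiquitin ligase gene Cbl, named after its value was seen, was 1.21-fold lower, and Errfi1, an inhibitor of Egfr named in the same way, was 1.14-fold higher. The other Errfi1 probe set was level, at a log2 ratio of 0.01.

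Of the immediate early genes that growth factor receptors induce, 12 of 16 were measured, 10 of them on both arrays, and these 10 were higher, where 47.66% of all such genes were. Fos and Etv5 were above the floor only with ATCE1-C-del and could only count as higher. The median log2 ratio was 0.35 (0.60 on hybridisation control scaling). This list overlaps one already known to stand high on these arrays, so it is no independent observation. Fosl1, an AP-1 subunit, read 398.8 in ATCE1-C-del cells and 227.5 in empty vector cells (1.75-fold higher). Its other probe set read 78.0 in ATCE1-C-del cells and, under the floor, 44.9 in empty vector cells. That gives only a bound of 0.01 (log2). Fos was at least 1.61-fold higher, at 124.7 in ATCE1-C-del cells and 53.5 in empty vector cells. Egr1 was 1.35-fold higher, Ier2 1.31-fold and Ier3 1.30-fold. The second-brightest probe sets, available for 4 of the 12 genes, had 2 higher and 2 lower and a median of -0.01. They lay at log2 ratios of 0.35 for Srf, -0.04 for Jun and -0.08 for Ccnd1, and at the bound of 0.01 for Fosl1. That bound enters the median. A further Ccnd1 probe set lay at 0.40 (log2). Across all these lists without the receptors, 104 genes were measured and 5 passed 1.5-fold, against 1.99% of all measured genes. Of the 5, 3 were higher, including Fos by its bound, and 2 lower.

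Because ATCE1 belongs to the CREB family, the promoters of the receptors were searched for the cAMP response element that CREB proteins bind. RefSeq promoter windows of 300 bases (GRCm38.p6) were searched for 7 of the 10 members: Pdgfra, Fgfr2, Egfr, Igf1r, Met, Axl and Ddr2. Pdgfrb, Fgfr1 and Insr were not searched, which does not show that they lack a window or a motif. The counts therefore leave out Pdgfrb, the member with the lowest ratio. On either strand, the full element TGACGTCA was in 0 of the 7 windows and in 1.79% of all 32851 windows, and TGACGTGG, an element of unfolded protein response genes, in 0 and 0.676%. The core TGACG, which both contain, was in 1 window, Pdgfra, and in 20.8% of all. The AP-1 motif TGAGTCA, bound by Fos and Jun proteins, was in 1 window, Met, and in 5.2% of all. These stretches are shown because they hold the only matches, with the matching letters in capitals, the core in Pdgfra being on the opposite strand (CGTCA). They lie at chr5:75152013-75152057 and chr6:17463883-17463929, both on the + strand.
Pdgfra: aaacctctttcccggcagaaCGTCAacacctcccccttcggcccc
Met: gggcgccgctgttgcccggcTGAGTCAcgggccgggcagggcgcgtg
The windows cover 1 annotated start per gene, which for some lies inside the annotated gene, 929 bases from its 5' end for Pdgfra, 608 for Met, 191 for Axl and 21892 for Ddr2. A match is not a binding site. The genes with a match had log2 ratios of -0.16 and 0.02 (Pdgfra) and -0.04 (Met).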

How the data were processed

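The deposited intensity of each probe set is a linear MAS5 signal made by the authors, as the submitters' processing notes name MAS5 without a version. Target value: not given in the sources used here. Of 22690 probe sets, 64 AFFX controls were left out. Each array was scaled by its mean after trimming 2% at each end, signals under the higher array median were set to it, and log2 ratios were taken. A common floor was used because floors that differ between arrays can turn a sign. Depth has no meaning for arrays. No test was possible with 1 array per group, so fixed folds (1.5-fold, with a log2 ratio of 0.32 and 2-fold as alternatives) were counted. Symbols came from the platform annotation table. The members and the lists were chosen with earlier results of these data known. Named genes were all members, plus per list the 4 largest ratios measured on both arrays and every gene past 1.5-fold; every measured ligand and other receptor tyrosine kinase is given as well, and Fgfrl1, Map2k1, Map2k2, Cbl and Errfi1 were added outside this rule. The procedure was tested on simulated data with larger changes, placed in probe sets well above the floor. That test does not cover ratios as small as those given here or signals near the floor. Alternatives changed scaling, floor, log scale, probe set choice and fold. Python 3.11.15, numpy 2.4.6, pandas 2.3.3, statsmodels 0.14.6 and matplotlib 3.10.9 were used.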

Additional observations from a re-analysis of the deposited data

How the results depend on the processing

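Of 15 alternatives, most left the receptor values in place. A value was taken to have moved when it changed by more than the spread between probe sets of a gene (0.20, log2), and a count when it changed over 1.5 times. The number of receptor probe sets past 1.5-fold, 0 in the report, was 2 with the floor at the 25th percentile, 1 with no floor, 1 with each array's own median as floor and 2 at a lower threshold (log2 ratio of 0.32), and the number of receptor genes was 1, 1, 1 and 2. Egfr supplied all of these except the Pdgfrb probe set and gene added at the lower threshold. The count over all genes, 135 in the report, was 363 on hybridisation control scaling, 928 and 27 with the floor at the 25th and 75th percentiles, 61 on log2 of signal plus 50, 85 with the second-brightest probe set, 996 at the lower threshold and 6 at 2-fold. The count over the pathway lists, 5 in the report, was 9, 20, 0, 2, 0, 26 and 0 under the same settings and 2 with the mean over probe sets. On hybridisation control scaling, list medians (log2 ratio) moved to 0.21 for the receptors, 0.086 for other receptor tyrosine kinases, 0.27 for binding proteins, 0.19 for adapters, 0.19 for relays, 0.22 for inhibitors and 0.60 for immediate early genes, and that of all genes to 0.23. The immediate early median was -0.014 with the second-brightest probe set, which only 4 of these genes have, Fosl1 among them as a bound. No paired analysis was possible because each group has 1 array, and for the same reason no array could be left out. Signals near the floor limit what can be said of Egfr, Insr and Gab1.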
